A study of Mus musculus with 30 samples.

Results

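The elastic fibre genes described here are 10 genes whose proteins build or cross-link elastic fibres: Eln, Fbn1, Fbn2, Fbln1, Fbln5, Lox, Loxl1, Emilin1, Mfap4 and Mfap5. They were found by symbol, as the probe sets that the platform's annotation assigns to them. The list of genes was drawn up with earlier results of these data known. A probe set is a group of short probes on the array that together read 1 transcript. Of the 10 genes, 9 were found with 19 probe sets, out of 45037 on the arrays, and 8 were bright enough to be tested, among 13089 genes tested in all. Fbn1, which encodes the microfibril protein fibrillin-1, had no probe set in that annotation and was not analysed here. Fbn2, which encodes fibrillin-2, a microfibril protein typical of developing tissue, was not tested, because both of its probe sets lay below the median of their own array on all 30 arrays (7.74 to 14.6).

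Elastic fibres give the lung its recoil. They consist of a core of cross-linked elastin laid down on a scaffold of fibrillin microfibrils. Fibulin-5 carries elastin and the lysyl oxidases to that scaffold, and the lysyl oxidases, copper enzymes, oxidise lysines of tropoelastin so that neighbouring chains join. In the lung most elastin is made while alveolar septa form, by myofibroblasts and smooth muscle, and the finished fibres are very long-lived.

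Whole lungs of C57BL/6 mice were measured on 30 Affymetrix mouse expression arrays, 1 animal to an array. Juvenile mice were 21 days old and adults were 16 weeks old, and at both ages untreated, spontaneously breathing animals were the controls (4 juvenile, 4 adult). The other groups inhaled aerosolised lipopolysaccharide of E. coli (LPS, a bacterial cell wall component; 4 juvenile, 4 adult), underwent mechanical ventilation (MV; 3 juvenile, 4 adult), or received both in that order (LPS+MV; 3 juvenile, 4 adult). The aerosol was made from 20 mL at 0.1 mg/mL and lasted 30 minutes. Ventilation used 15 mL/kg breaths at 80 per minute with 30% oxygen and an end-expiratory pressure of 2 cm H2O, and lungs were taken at the end of a study period of 2 h. The animals were of an inbred strain without transgenes, and the labels give no sex. The design asks whether the lung's response to LPS, ventilation and both depends on age.

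The annotated starts of 3 measured genes are shown here. Usable windows were not at hand for every gene. These 3 went different ways with age, as given further on: Fbln1 higher, Fbln5 lower and Emilin1 without a difference that passed. The sequences are the 250 bases before a RefSeq start on build GRCm38.p6, read 5′ to 3′ on the gene's strand, and they are not probe positions. Capitals mark each CAGAC (the core letters of a SMAD-binding element) and each GGGCGG (a GC box), on either strand, so that GTCTG and CCGCCC are the same motifs on the opposite strand. TGANTCA, the letters of an AP-1 site, was searched on both strands too. No motif overlapped another in the printed windows.
Emilin1, chr5:30913536-30913785, plus strand: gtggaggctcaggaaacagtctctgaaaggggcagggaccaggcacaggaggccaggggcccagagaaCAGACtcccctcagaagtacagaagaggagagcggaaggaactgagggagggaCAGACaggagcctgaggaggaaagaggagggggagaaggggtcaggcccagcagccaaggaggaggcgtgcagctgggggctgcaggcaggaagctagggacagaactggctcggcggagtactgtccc
Fbln1, chr15:85205758-85206007, plus strand: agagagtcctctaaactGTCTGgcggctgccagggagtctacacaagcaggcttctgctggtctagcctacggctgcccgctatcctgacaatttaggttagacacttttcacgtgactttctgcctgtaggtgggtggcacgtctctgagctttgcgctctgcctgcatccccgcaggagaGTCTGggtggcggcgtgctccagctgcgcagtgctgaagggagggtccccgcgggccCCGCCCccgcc
Fbln5 first start, chr12:101818485-101818734, minus strand: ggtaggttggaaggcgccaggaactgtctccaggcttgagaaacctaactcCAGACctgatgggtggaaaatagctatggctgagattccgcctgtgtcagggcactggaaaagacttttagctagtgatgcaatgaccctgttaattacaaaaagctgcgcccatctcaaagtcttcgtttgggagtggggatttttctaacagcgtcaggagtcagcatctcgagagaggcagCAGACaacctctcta
Fbln5 second start, chr12:101819120-101819369, minus strand: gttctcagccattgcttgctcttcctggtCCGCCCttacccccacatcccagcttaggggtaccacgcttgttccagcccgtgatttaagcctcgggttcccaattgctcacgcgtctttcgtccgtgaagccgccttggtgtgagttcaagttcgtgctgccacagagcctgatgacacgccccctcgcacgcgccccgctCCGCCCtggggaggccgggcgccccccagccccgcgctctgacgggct
Emilin1 and the first Fbln5 window held the SMAD letters 2 times each and no GC box. The printed Fbln1 window held the SMAD letters 2 times and 1 GC box, and the second Fbln5 window held 2 GC boxes and no SMAD letters. Another Fbln1 window that overlaps the printed one (chr15:85205699-85205948) is not printed. It held the SMAD letters 2 times and no GC box. The AP-1 letters were in none of these windows. Over all 32851 promoter windows of the same length, 42.2% held the SMAD letters, 32.7% the GC box and 6.75% the AP-1 letters, so the matches are a description of letters and nothing more.

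The median intensity of an array was about 22.2, and 4 arrays stood apart from their groups with a standard deviation of their genes' deviations of 0.166 to 0.203 against a median of 0.120 over arrays. They were adult LPS+MV replicate 2, juvenile control replicate 4, juvenile LPS+MV replicate 3 and juvenile MV replicate 3. The surfactant gene Sftpc (18124 to 22163) and the alveolar type 1 gene Ager (7119 to 12681) were high on all 30 arrays. Xist, which is expressed from the silenced X chromosome of female cells, was at 425 to 771 on 11 arrays and at 18.2 to 27 on the other 19. In adults the 11 high arrays held all 4 of the MV group and 3 of the 4 of the LPS+MV group, and no control or LPS array. In juveniles they held 1 of 4 untreated, 1 of 3 ventilated and 2 of 3 LPS+MV animals, and no animal given LPS alone. A fit with a term for these arrays is named below wherever it ended a call. The adult controls differed among themselves in leukocyte markers: the summed intensity of the 11 markers tested was 6265 and 4786 in replicates 1 and 2 and 19944 and 24786 in replicates 3 and 4. As these arrays are the reference of every adult comparison with controls, fits without either pair, chosen after the data were seen, are named wherever a call ended. Intensities are given as deposited, in replicate order. A difference is the limma log2 difference on the log2(intensity + 32) scale ± its standard error (SE), and adjusted p is the Benjamini-Hochberg value over all genes tested, with a threshold of 0.05.

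**Figure D1:**
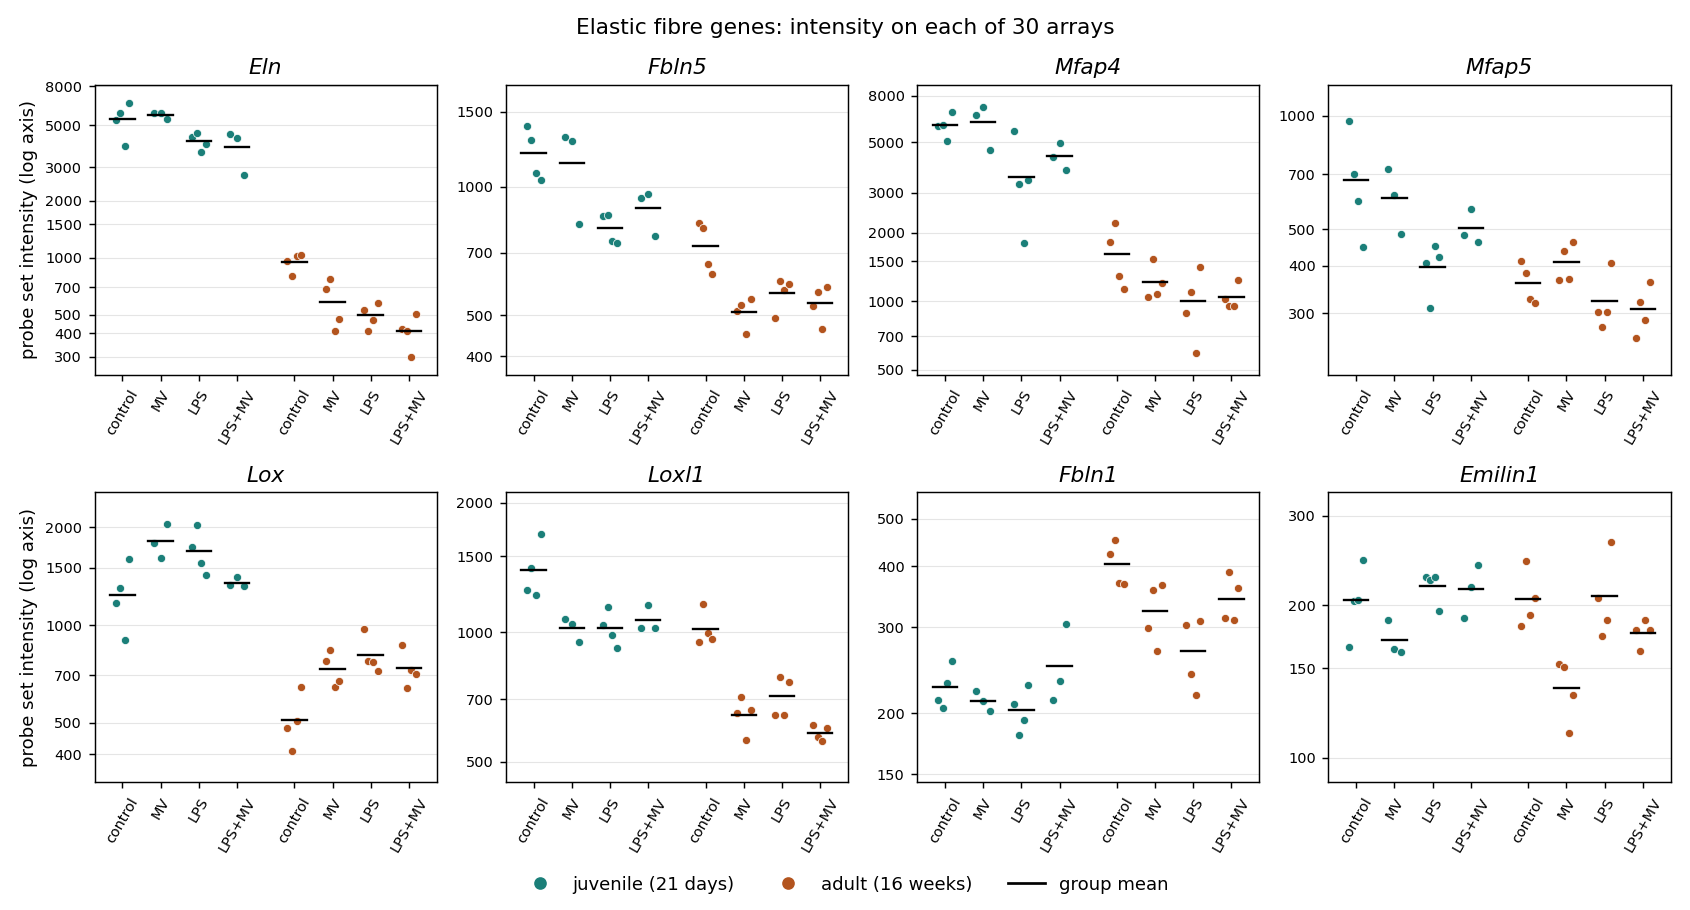
Probe set intensity (y, log axis, a different range in each panel) of the 8 tested elastic fibre genes on each of the 30 arrays, by group (x), juvenile in green and adult in orange. Bars are group means. Eln lies lower on every adult array than on any juvenile array. Mfap4 does so but for juvenile LPS replicate 3 (1803), which lies below adult control replicates 1 and 2. Fbln1 is the gene whose adult controls (368 to 452) lie above its juvenile controls (205 to 256).

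In untreated lungs, 6 of the 8 tested genes were lower in adults than in juveniles (Eln, Mfap4, Lox, Mfap5, Fbln5 and Loxl1), Fbln1 was higher, and Emilin1 did not pass. Eln, which encodes elastin itself, differed most, by 5.42-fold. Over all 13089 genes, 25.2% passed in this comparison, 10.1% lower and 15.1% higher. The 2 control groups did not overlap for 7 of the 8 genes, against 22.1% of all genes. The median difference of the 8 genes was -0.75, against 0.01 over all genes. Markers of the cells that make elastin moved in the same comparison: 7 of 12 tested fibroblast markers were lower and 1 was higher in adult controls, and their summed intensity was 14772 to 17473 in adult and 26093 to 29245 in juvenile controls. Of 10 smooth muscle and myofibroblast markers 2 were lower and 1 was higher, with sums of 6644 to 7427 in adult and 7617 to 8367 in juvenile controls. The part of these cells in the result was not tested, and in whole lung fewer cells of a type and less RNA per cell cannot be told apart. Leukocyte markers were higher in adult controls in 10 of 11, with sums of 4786 to 24786 against 2226 to 5082 in juvenile controls, and their part was not tested either. Cartilage of the airways was near background: 6 of its 9 markers fell below the filter, among them Matn1 (6.27 to 7.89).

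Eln was read by a bright and a dim probe set, and the bright one (1420855_at) represents the gene. In juvenile controls it stood at 5322, 5823, 3884 and 6517. In adult controls it stood at 964, 798, 1024 and 1033. The lowest juvenile array was thus far above the highest adult array, and the groups did not overlap. The difference was -2.44 ± 0.18 (adjusted p = 2.55e-10). The dim probe set (1420854_at) gave -2.17 ± 0.18 (adjusted p = 2.11e-09), in the same direction.

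Mfap4 and Mfap5 encode proteins attached to microfibrils. Mfap4 was at 5869.9, 5940.3, 5067 and 6795 in juvenile controls and at 1821, 2195, 1289.8 and 1128 in adult controls. No adult control came near the juvenile controls, and adult replicates 1 and 2, with the lower leukocyte sums, were higher than replicates 3 and 4. The same order of these pairs held for Fbln5 and Mfap5 below. Mfap4 was 3.73-fold lower in adults (-1.90 ± 0.25, adjusted p = 3.67e-06). Mfap5 was at 967, 703, 594 and 449.9 in juvenile and at 412, 384, 328 and 320.0 in adult controls, a difference of -0.81 ± 0.16 (adjusted p = 0.000508). Juvenile replicate 1 was the highest and juvenile replicate 4 the lowest, and that lowest array still lay above all 4 adult ones. A second Mfap5 probe set (1449082_at) gave a larger difference of -1.36 ± 0.15 (adjusted p = 4.22e-07).

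Fibulin-5 and emilin-1 sit at the surface of the elastin core. Fbln5, whose protein fibulin-5 binds tropoelastin and brings it to microfibrils, was at 1389, 1288, 1081 and 1036 in juvenile and at 822, 802, 659.9 and 625 in adult controls. The groups did not overlap, and the difference was -0.70 ± 0.12 (adjusted p = 0.000137). Fbln1, whose protein fibulin-1 lies within elastic fibres and basement membranes, went the other way. It was at 213, 205, 231 and 256 in juvenile and at 423, 452, 369.6 and 368 in adult controls, without overlap, and was 1.69-fold higher in adults (0.75 ± 0.11, adjusted p = 1.65e-05). The next probe set of Fbln1 (1422540_at) gave 0.69 ± 0.11 (adjusted p = 2.99e-05), whereas the dimmest one (1439688_at, 42.3 to 64.7) gave -0.01 ± 0.07 (adjusted p = 0.945). Emilin1, which encodes a glycoprotein between elastin and microfibrils, was at 166, 204, 204 and 245 in juvenile and at 182, 244, 191 and 206 in adult controls. These ranges overlapped and the difference was 0.01 ± 0.11, with a 95% confidence interval of -0.22 to 0.23.

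The cross-linking enzymes were lower in adults. Lox, which encodes lysyl oxidase, was at 1166, 1298, 900.5 and 1598 in juvenile controls and at 481, 409.6, 506 and 644 in adult controls. Every adult array lay below every juvenile array, and the difference was -1.22 ± 0.14 (adjusted p = 6.45e-07). Loxl1, which encodes the lysyl oxidase-like enzyme that acts on elastin, was at 1253, 1410.0, 1221 and 1688 in juvenile and at 947, 1163, 996 and 966 in adult controls. Adult replicate 2 came closest to the juvenile range without reaching it. The difference of -0.43 ± 0.09 (adjusted p = 0.00109) was the smallest of the 7 that passed. With each array left out in turn, 7 genes passed in every fit of this comparison, and 7 passed without either pair of adult controls.

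**Figure D2:**
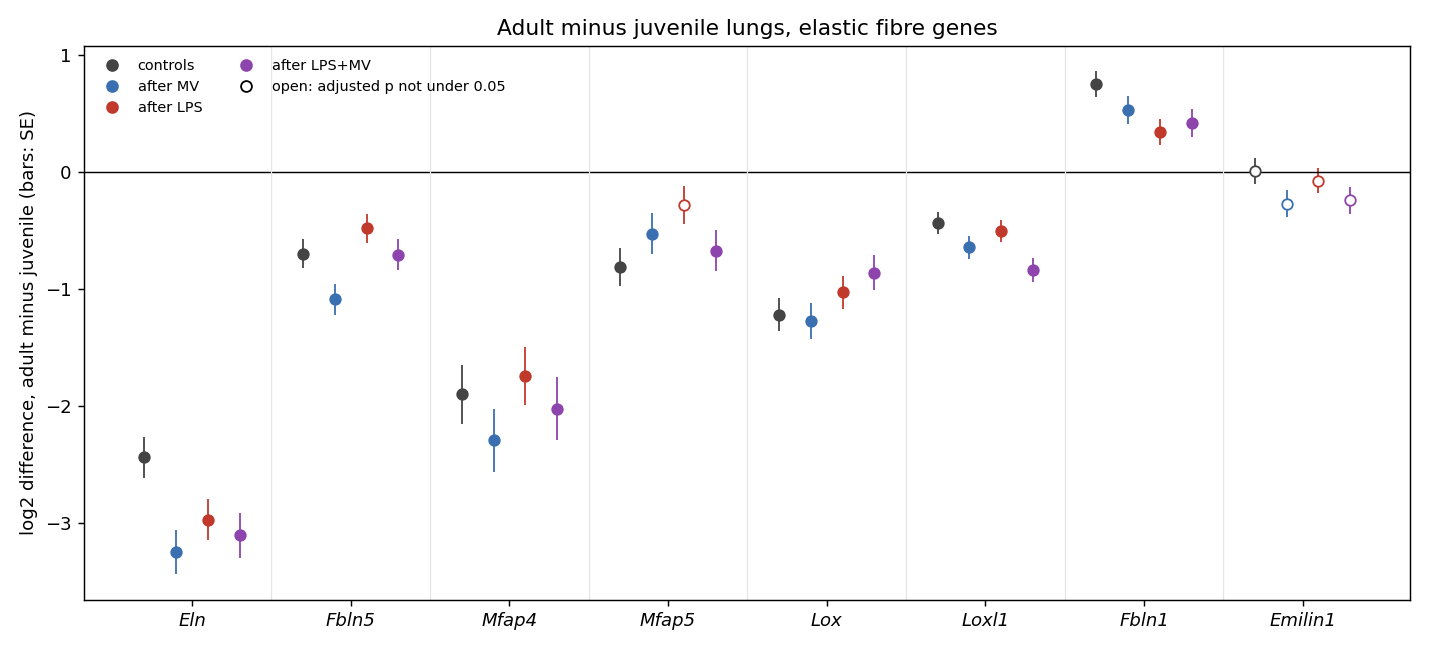
Adult minus juvenile log2 difference (y) of each gene (x) in controls and after each treatment, with bars of 1 SE. Filled points passed at an adjusted p under 0.05 and open points did not. Eln lies between -2.44 and -3.25, Fbln1 is above 0 in all 4 comparisons, and Emilin1 has only open points.

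Adults were compared with juveniles within each treatment as well, on arrays that do not include the controls. After MV, 7 of the 8 genes passed, 6 lower and 1 higher, where 23.3% of all genes passed (15.0% lower, 8.31% higher), and the groups did not overlap for all 8, against 30.6% of all genes. After LPS, 6 passed, 5 lower and 1 higher, where 16.4% of all genes passed (7.51% lower, 8.85% higher), and 5 did not overlap, against 21.4%. After LPS+MV, 7 passed, 6 lower and 1 higher, where 12.2% of all genes passed (4.94% lower, 7.30% higher), and all 8 did not overlap, against 24.2%. Eln was 9.51-fold lower after MV (-3.25 ± 0.19), 7.85-fold lower after LPS (-2.97 ± 0.18) and 8.60-fold lower after LPS+MV (-3.11 ± 0.19), with adjusted p of 4.80e-12, 1.29e-11 and 2.92e-11. On the dim Eln probe set these differences were -2.94, -2.19 and -2.04, where it gave -2.17 between controls. The age difference was thus larger than between controls after all 3 treatments on the bright probe set, but only after MV on the dim one. Fbln1 was higher in adults by 0.53 ± 0.12, 0.34 ± 0.11 and 0.42 ± 0.12 in the same order. Mfap5 did not pass after LPS (-0.28 ± 0.16, adjusted p = 0.264), where its second probe set gave -0.98 ± 0.15 (adjusted p = 6.19e-05). The Fbln1 call after LPS ended without juvenile replicate 1 (0.36, adjusted p = 0.0552), 2 (0.30, 0.112) or 3 (0.33, 0.0805), or adult replicate 1 (0.29, 0.120) or 4 (0.28, 0.130). After LPS+MV it ended without juvenile replicate 1 (0.32, adjusted p = 0.149) or 2 (0.38, 0.0956) or adult replicate 2 (0.36, 0.0753), and with only these groups in the fit (0.0769). On the dimmest Fbln1 probe set none of the 3 differences passed (0.06, 0.00 and -0.07). The second Loxl1 probe set did not pass after LPS (-0.16, adjusted p = 0.199). The Mfap5 call after MV ended without juvenile replicate 1 (-0.40, adjusted p = 0.173) or 2 (-0.51, 0.0870), without adult replicate 1 (-0.48, 0.0679) or 3 (-0.48, 0.0779), and with the Xist term (-0.38, 0.190). Its call after LPS+MV ended without juvenile replicate 2 (-0.59, adjusted p = 0.0707).

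Ventilation alone moved the cross-linking enzymes of juvenile lungs in opposite directions: Lox rose and Loxl1 fell, and the other 6 genes did not pass. So 2 of 8 passed, 1 higher and 1 lower, where 10.9% of all genes passed (4.41% higher, 6.45% lower), and these were also the 2 genes whose groups did not overlap, against 19.2% of all genes. The median difference was -0.09, against -0.02 over all genes. In the 3 ventilated juveniles Lox was at 1789, 1605 and 2049, each above the highest of the 4 controls given before (1598). The rise was 0.56 ± 0.15 (adjusted p = 0.0196). Loxl1 was at 1073, 1045 and 948, each below the lowest control (1221), a difference of -0.43 ± 0.10 (adjusted p = 0.00818). Eln, at 5814, 5828 and 5373, lay within the range of the juvenile controls (0.10 ± 0.19, adjusted p = 0.813). Mfap4 (6609, 7133 and 4598) and Fbln5 (1309.8, 1281 and 819) overlapped their controls too, with replicate 3 the lowest in both.

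These 2 juvenile calls after MV rest on few arrays. Lox no longer passed when juvenile control replicate 3 was left out (0.42, adjusted p = 0.0725), juvenile MV replicate 1 (0.56, 0.0521) or juvenile MV replicate 3 (0.47, 0.112), and the Loxl1 call without juvenile MV replicate 3 (-0.37, 0.0554). With only these 2 groups in the fit neither gene passed (adjusted p = 0.127 and 0.107), and without the 4 arrays that stood apart Loxl1 did not (-0.28, 0.116). The second Lox probe set gave 0.70 ± 0.15 (adjusted p = 0.00517), and the second Loxl1 probe set gave -0.19 ± 0.09 (adjusted p = 0.168). The dim Eln probe set, unlike the bright one, passed as higher after MV (0.67, adjusted p = 0.0269), as described further on.

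Inhaled LPS lowered 4 elastic fibre genes in juvenile lungs (Fbln5, Loxl1, Mfap4 and Mfap5) and raised Lox. These 5 of 8 compare with 22.9% of all genes that passed (13.3% lower, 9.58% higher), and the median difference was -0.40, against -0.03 over all genes. Groups did not overlap for 2 of the 8, against 22.0% of all genes. Fbln5 was at 852, 861, 745 and 739, all 4 below the lowest control of 1036 (-0.56 ± 0.12, adjusted p = 0.00125). Loxl1 was at 1039, 1144, 983 and 917, again all below the controls (-0.43 ± 0.09, adjusted p = 0.00111). Mfap5, at 408, 310.0, 451 and 422, overlapped the controls by 1 array, since juvenile control replicate 4 (449.9) lay just under LPS replicate 3 (-0.69 ± 0.16, adjusted p = 0.00242).

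Mfap4 varied more after LPS in juveniles than in any other group: it was at 5616, 3286, 1803 and 3400.3. Replicate 1 lay among the controls and replicate 3 far below them, and the difference was -0.84 ± 0.25 (adjusted p = 0.0150). Without replicate 3 it was -0.56 and no longer passed (adjusted p = 0.0983). Lox, at 1742, 2030.0, 1550.2 and 1428, overlapped the controls and was 1.37-fold higher (0.45 ± 0.14, adjusted p = 0.0216). Lox no longer passed when juvenile control replicate 1 was left out (0.43, adjusted p = 0.0505) or 3 (0.31, 0.114), without LPS replicate 1 (0.43, 0.0526) or 2 (0.36, 0.0841), with only these groups in the fit (adjusted p = 0.0691), and on the second probe set (0.39, 0.0573). Eln, at 4327, 4553, 3623 and 3955, overlapped the controls and did not pass (-0.37 ± 0.18, adjusted p = 0.145), but passed with the Xist term (-0.46, adjusted p = 0.0365). Fbln1 and Emilin1 did not pass, with differences of -0.14 ± 0.11 and 0.09 ± 0.11. In this comparison 4 of 12 fibroblast markers fell and none rose, with sums of 21264 to 25190 after LPS and 26093 to 29245 in controls, and 2 of 10 smooth muscle markers fell. Leukocyte markers rose in 6 of 11, with sums of 8785 to 10389 after LPS and 2226 to 5082 in controls, without overlap. Their part in these differences was not tested.

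After LPS followed by MV, 3 elastic fibre genes were lower in juvenile lungs (Eln, Fbln5 and Loxl1) and none was higher. This is 3 of 8 where 31.3% of all genes passed (20.5% lower, 10.8% higher), and 3 of 8 did not overlap, against 32.2% of all genes, so the count lay near the background. The median difference was -0.36, against -0.05 over all genes. Loxl1 was at 1025, 1154 and 1026, all below the controls (-0.36 ± 0.10, adjusted p = 0.00696). Fbln5 was at 944, 964 and 768, also below every control (-0.41 ± 0.13, adjusted p = 0.0194). Eln was at 4473, 4258 and 2715, where replicate 3 was lowest and the others overlapped the controls (-0.50 ± 0.19, adjusted p = 0.0466). Lox, at 1327, 1409 and 1321, was close to the controls (0.15 ± 0.15, adjusted p = 0.505). Mfap4 (4289, 4961 and 3782) lay below all controls without passing (-0.44 ± 0.27, adjusted p = 0.226). Leukocyte markers rose in 6 of 11, with sums of 16432 to 17324 against 2226 to 5082 in controls. Fibroblast markers rose in 2 and fell in 2 of 12 (23546 to 27035), and 1 of 10 smooth muscle markers fell, with sums of 6574 to 7375, all below the controls' 7617 to 8367. The part of these cells was not tested.

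The Eln call after LPS+MV in juveniles was marginal. It ended in 14 of the 30 fits that left out 1 array: without juvenile LPS+MV replicate 3 (-0.28, adjusted p = 0.339), juvenile control replicate 4 (-0.40, 0.131), 2 (-0.46, 0.108) or 1 (-0.50, 0.0769), and, with adjusted p of 0.0508 to 0.0521, without juvenile MV replicate 1 or 2, juvenile LPS replicate 1 or 4, adult control replicate 1, 3 or 4, adult LPS replicate 1 or 3, or adult LPS+MV replicate 1. It also ended with the Xist term (-0.34, adjusted p = 0.166), without the 4 arrays that stood apart (-0.18, 0.586), with array weights (-0.30, 0.136), a pseudocount of 1 (0.0525), no filter (0.0608) only these groups in the fit (0.120), and without adult control replicates 3 and 4 (0.0544) or 1 and 2 (0.0510), while the dim Eln probe set passed (-0.57 ± 0.19, adjusted p = 0.0272). Fbln5 no longer passed when juvenile control replicate 1 was left out (-0.34, adjusted p = 0.0731) or 2 (-0.37, 0.0556), without juvenile LPS+MV replicate 3 (-0.31, 0.127), and with the Xist term (-0.30, 0.0757). The Loxl1 call ended without the 4 arrays that stood apart (-0.24, adjusted p = 0.102), with only these groups in the fit (0.0613) and on its second probe set (-0.13, 0.279).

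**Figure D3:**
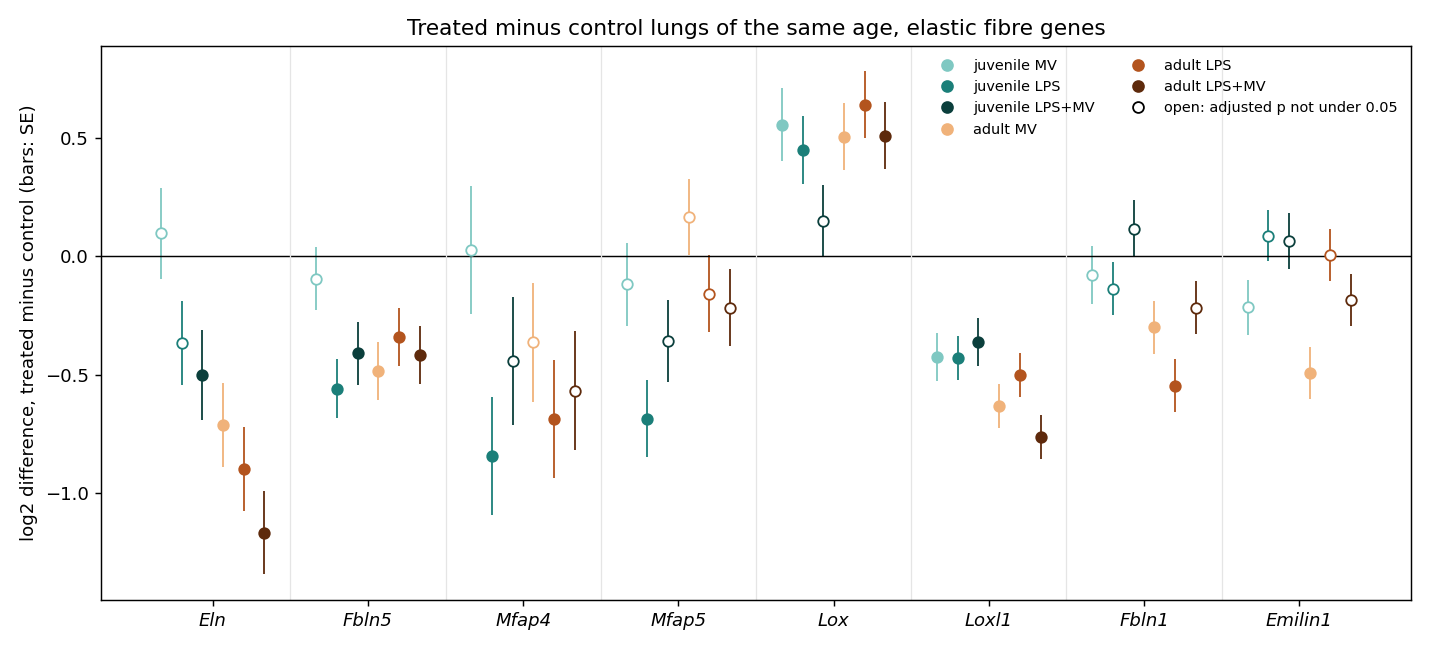
Treated minus control log2 difference (y) of each gene (x) in the 3 treatments at both ages, with bars of 1 SE, juvenile in greens and adult in browns. Filled points passed at an adjusted p under 0.05 and open points did not. Loxl1 lies below 0 with filled points in all 6 comparisons, Lox lies above 0 with 5 filled points, and Eln is lowest after LPS+MV in adults (-1.17).

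In adult lungs after ventilation alone, Eln, Fbln5, Fbln1, Emilin1 and Loxl1 were lower and Lox was higher than in controls. These 6 of 8 compare with 31.5% of all genes that passed (24.3% lower, 7.17% higher), and the groups did not overlap for the same 6 genes, against 30.5% of all genes. The median difference was -0.42, against -0.06 over all genes. Loxl1 was at 650.1, 706, 562 and 659, far below the lowest control of 947 (-0.63 ± 0.09, adjusted p = 1.87e-05). Eln was at 687, 771, 409 and 475, with replicates 1 and 2 just under the lowest control of 798 and replicates 3 and 4 lower still (-0.71 ± 0.18, adjusted p = 0.00331). Emilin1 was at 153, 151, 112 and 133, below controls of 182 to 244 (-0.49 ± 0.11, adjusted p = 0.00129). The elastin carrier Fbln5 was at 511, 527, 452 and 544, below controls of 625 to 822 (-0.48 ± 0.12, adjusted p = 0.00391). Lox was at 776, 838, 647 and 672, each above the highest control of 644.1 (0.51 ± 0.14, adjusted p = 0.00789). Fbln1 fell least, to 299, 358, 268 and 366 (-0.30 ± 0.11, adjusted p = 0.0424). Mfap4 (-0.36 ± 0.25) and Mfap5 (0.17 ± 0.16) overlapped the controls and did not pass. Adult MV replicate 3 was the lowest MV array for Eln, Fbln1, Fbln5, Loxl1 and Emilin1. Its upper quartile of intensity (89.1) was also the lowest of the 30 arrays, of which the highest was 111. The calls of Eln, Fbln5, Loxl1 and Emilin1 held with each array left out in turn.

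All 4 adult MV arrays had high Xist and no adult control had, so the treatment and this pattern cannot be told apart within these 8 arrays. With a term for the pattern, estimated on the other groups, 3 of the 8 genes passed: Eln was at -0.33 (adjusted p = 0.311), Fbln5 at -0.21 (0.353) and Fbln1 at -0.33 (0.147), while Lox, Loxl1 and Emilin1 still passed. With the mean over its probe sets Eln was at -0.41 (adjusted p = 0.0648) and Fbln1 at -0.19 (0.0522). The Fbln1 call also ended under quantile normalization (-0.23, adjusted p = 0.100), without the filter (0.0528), with array weights (-0.22, 0.0752), and without adult control replicate 1 (-0.28, 0.0934) or 2 (-0.25, 0.136) or adult MV replicate 1 (-0.27, 0.0996) or 3 (-0.22, 0.173). Without adult control replicates 1 and 2, 3 of the 8 genes passed, and Fbln5 (-0.32, adjusted p = 0.120), Lox (0.34, 0.162) and Fbln1 (-0.19, 0.367) did not. Without replicates 3 and 4, 5 passed, and Eln did not (-0.60, adjusted p = 0.0579). The second probe sets gave smaller values, of -0.26 ± 0.08 for Loxl1 (adjusted p = 0.0163) and -0.12 ± 0.08 for Emilin1 (adjusted p = 0.291), and the dimmest Fbln1 probe set turned direction (0.06, 0.546). The dim Eln probe set did not pass (-0.10, adjusted p = 0.707), as described further on. In the same comparison 5 of 12 fibroblast markers fell, with sums of 10513 to 14000 after MV and 14772 to 17473 in controls, 4 of 6 mesothelial markers fell, and 3 of 10 smooth muscle markers rose and 1 fell, with sums of 8020 to 10015 after MV and 6644 to 7427 in controls. Leukocyte markers fell in 4 of 11, with sums of 3713 to 11548, and endothelial markers fell in 3 of 8. Their part in these differences was not tested.

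Inhaled LPS lowered Eln, Fbln1, Fbln5, Loxl1 and Mfap4 in adult lungs and raised Lox. These 6 of 8 compare with 36.0% of all genes that passed (23.0% lower, 12.9% higher), and 5 of the 8 did not overlap, against 34.6% of all genes. The median difference was -0.42, against -0.04 over all genes. Eln was at 533, 413, 471 and 575, all below the controls and 1.87-fold lower (-0.90 ± 0.18, adjusted p = 0.000260). Fbln1 was at 302, 241, 218 and 309, below the lowest control of 368 (-0.55 ± 0.11, adjusted p = 0.000394). Loxl1 was at 643, 789, 644 and 767, also without overlap (-0.50 ± 0.09, adjusted p = 0.000137). Lox was at 973, 776, 771 and 721, every array above every control, and rose by 0.64 ± 0.14 (adjusted p = 0.000841). Fbln5 (492, 602, 573 and 592) lay just under its lowest control of 625 (-0.34 ± 0.12, adjusted p = 0.0310). Mfap4 (891, 1102, 593 and 1407) overlapped its controls, with replicate 3 far below the rest (-0.69 ± 0.25, adjusted p = 0.0333). Emilin1 (0.01 ± 0.11) and Mfap5 (-0.16 ± 0.16) did not pass.

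None of these adult LPS arrays or their controls had high Xist. Fbln5 no longer passed when adult control replicate 1 was left out (-0.28, adjusted p = 0.105) or 2 (-0.29, 0.100) or LPS replicate 1 (-0.28, 0.104) or 3 (-0.35, 0.0507). Mfap4 no longer passed when control replicate 1 was left out (-0.61, adjusted p = 0.0886) or 2 (-0.52, 0.139) or LPS replicate 1 (-0.66, 0.0693) or 3 (-0.47, 0.165). Without adult control replicates 1 and 2 both were smaller still, Fbln5 at -0.18 (adjusted p = 0.415) and Mfap4 at -0.33 (0.461), and 4 genes passed. Without replicates 3 and 4 they were -0.50 (adjusted p = 0.0109) and -1.04 (0.00886), and 6 passed. On other probe sets the difference was smaller and did not pass for Eln (-0.42 ± 0.18, adjusted p = 0.0755), Fbln1 (-0.19 ± 0.11, 0.177) and Loxl1 (-0.09 ± 0.08, 0.436), and the dimmest Fbln1 probe set turned direction (0.06, 0.516). Fibroblast markers fell in 6 of 12 and rose in 1, with sums of 12838 to 14931 after LPS, and smooth muscle markers fell in 4 of 10, with sums of 5311 to 6480. Leukocyte markers rose in 5 of 11 and fell in 1, with sums of 23085 to 34567, endothelial markers fell in 5 of 8 (7391 to 9713 against 10249 to 11052 in controls), and mesothelial markers fell in 3 of 6 (759 to 973 against 1181 to 1240.2). Their part in these differences was not tested.

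After LPS followed by MV the mean of Eln was the lowest of the 8 groups, though the difference from adult LPS alone did not pass (-0.27 ± 0.18). In these adult lungs 4 of the 8 genes passed, Eln, Fbln5 and Loxl1 lower and Lox higher, where 42.1% of all genes passed (27.3% lower, 14.8% higher), and 3 of 8 did not overlap, against 42.2% of all genes, so both counts lay near the background. The median difference was -0.32, against -0.05 over all genes. Eln was at 424, 413, 302 and 506, all below the controls and 2.25-fold lower (-1.17 ± 0.18, adjusted p = 6.84e-06). Loxl1 was at 608, 571, 560.2 and 599.6, a narrow range far under the controls (-0.76 ± 0.09, adjusted p = 2.64e-07). Fbln5 was at 524, 568, 463 and 583 and also lay below every control (-0.42 ± 0.12, adjusted p = 0.00741). Lox was at 870.2, 639.6, 726 and 708, and its replicate 2 overlapped the highest control (0.51 ± 0.14, adjusted p = 0.00483). Fbln1, Emilin1, Mfap4 and Mfap5 did not pass, with differences of -0.22 ± 0.11, -0.18 ± 0.11, -0.57 ± 0.25 and -0.22 ± 0.16. High Xist marked 3 of these 4 arrays and none of the controls, and with the Xist term the Fbln5 call ended (-0.21, adjusted p = 0.218). Without adult control replicates 1 and 2, 2 genes passed, and Fbln5 (-0.26, adjusted p = 0.190) and Lox (0.34, 0.127) did not. Without replicates 3 and 4, 5 passed, with Mfap4 added (-0.92, 0.0169). The dim Eln probe set gave -0.44 ± 0.18 and did not pass (adjusted p = 0.0532). Fibroblast markers fell in 5 of 12 and rose in 2, with sums of 11998 to 14637. Endothelial markers fell in 5 of 8, with sums of 6936 to 8475 against 10249 to 11052 in controls, and mesothelial markers in 4 of 6, with sums of 704 to 959 against 1181 to 1240.2, both without overlap. Smooth muscle markers fell in 3 of 10, and leukocyte markers rose in 2 and fell in 1 of 11 (18905 to 23977). The part of these cells was not tested.

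The combination was also compared with each of its parts. Against LPS alone, none of the 8 genes passed in juveniles, where 15.4% of all genes passed, or in adults, where 7.04% did. At an unadjusted p under 0.05 there were 1 and 2, namely Fbln1 in juveniles (0.25 ± 0.12) and Fbln1 (0.33 ± 0.11) and Loxl1 (-0.26 ± 0.09) in adults. Counts at an unadjusted p have no like share beside them, since the shares of all genes given here are at adjusted p. Against MV alone, 1 gene passed in juveniles, where 14.7% of all genes passed: the difference of Eln was -0.60 ± 0.21 (adjusted p = 0.0474), and all 3 juvenile LPS+MV arrays (2715 to 4473) lay below the 3 MV arrays (5373 to 5828). That call ended in 17 of the 30 fits that left out 1 array, without juvenile LPS+MV replicate 3 (-0.37, adjusted p = 0.296) or juvenile MV replicate 1 (-0.58, 0.122), 2 (-0.58, 0.126) or 3 (-0.64, 0.0603), and, with adjusted p of 0.0503 to 0.0541, without juvenile control replicate 1 or 2, any juvenile LPS replicate, adult control replicate 1, 3 or 4, adult LPS replicate 1 or 3, or adult LPS+MV replicate 1 or 2. It also ended with a pseudocount of 1 (0.0540), no filter (0.0623), no intensity trend (0.0507), only these groups in the fit (0.0877), the Xist term (-0.47, 0.103) without the 4 arrays that stood apart (-0.41, 0.255), and without adult control replicates 3 and 4 (0.0557) or 1 and 2 (0.0521). The dim Eln probe set gave a larger difference of -1.24 in this juvenile comparison. Over the settings and both probe sets adjusted p ran from 8.41e-05 to 0.255. Against MV in adults none passed, where 17.4% of all genes did. At an unadjusted p under 0.05 there were 3: Eln (-0.46 ± 0.18, adjusted p = 0.0781), Emilin1 (0.31 ± 0.11, adjusted p = 0.0518) and Mfap5 (-0.38 ± 0.16, adjusted p = 0.109). These comparisons share the LPS+MV arrays with those against controls.

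Whether a treatment acted differently at the 2 ages was tested as an interaction, the adult minus the juvenile log2 difference. None of the 8 genes passed for MV, where 6.13% of all genes passed, for LPS, where 3.69% did, or for LPS+MV, where 2.10% did. At an unadjusted p under 0.05 there were 2, 3 and 2 genes, counts without a like share of all genes, since the shares given are at adjusted p. For MV they were Eln (-0.81 ± 0.26, adjusted p = 0.0613) and Fbln5 (-0.39 ± 0.18, adjusted p = 0.200). For LPS they were Eln (-0.53 ± 0.25), Fbln1 (-0.41 ± 0.16) and Mfap5 (0.53 ± 0.23), with adjusted p of 0.272, 0.167 and 0.225. For LPS+MV they were Eln (-0.67 ± 0.26, adjusted p = 0.166) and Loxl1 (-0.40 ± 0.14, adjusted p = 0.113). Without the 4 arrays that stood apart, Eln passed for MV (-0.95, adjusted p = 0.0212) and for LPS+MV (-1.0, 0.0344), Fbln5 for MV (-0.54, 0.0232), Loxl1 for LPS+MV (-0.51, 0.0374) and Mfap5 for LPS (0.70, 0.0326), a setting chosen after the data were seen. With 1 array left out, Eln passed for MV in 4 fits. Fbln5 for MV, Loxl1 for LPS+MV and Mfap5 for LPS passed in 1 fit each. Over all the other settings and probe sets, adjusted p for LPS+MV ran from 0.00547 to 0.847 for Eln and from 0.00634 to 0.672 for Loxl1. On the dim Eln probe set the interaction was -0.02 for LPS and turned direction for LPS+MV (0.13). For MV the Eln interaction lay at -0.95 to -0.46 over these settings and both probe sets. For Lox the interaction lay at -0.05 ± 0.21 for MV and 0.19 ± 0.20 for LPS, with 95% confidence intervals of -0.48 to 0.38 and -0.22 to 0.60. For LPS+MV it was larger, at 0.23 to 0.50 with each array left out in turn, and did not pass (adjusted p of 0.185 to 0.550).

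In the order of the 8 group means, Eln ran from juvenile MV and juvenile control through juvenile LPS and juvenile LPS+MV down to adult control, adult MV, adult LPS and adult LPS+MV. Of the 7 steps in that order, 2 passed: juvenile LPS+MV to adult control (1.94 ± 0.19, adjusted p = 8.70e-09) and adult control to adult MV. Mfap4 had a single step that passed, from juvenile LPS to adult control (1.06 ± 0.25, adjusted p = 0.00141). Lox had 2, from juvenile control to adult LPS (0.58 ± 0.14, adjusted p = 0.00190) and from adult MV down to adult control, its lowest group. Loxl1 was different in that its steps lay within the ages, from juvenile control to juvenile LPS+MV and from adult control to adult LPS, while juvenile LPS and adult control were alike in mean (10.04 and 10.03 on the log2 scale, difference 0.00 ± 0.09). Fbln5 had 1 step, from adult control to adult LPS, and for Fbln1, Emilin1 and Mfap5 no step passed. Over all 28 pairs of groups, 21 passed for Eln and 21 for Lox, 20 for Fbln5, 19 for Loxl1 and 19 for Mfap4, 15 for Fbln1, 13 for Mfap5 and 5 for Emilin1. The order is read from the same arrays as the tests.

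The 2 Eln probe sets did not give the same differences under treatment. This was singled out after the values were seen, so the difference between the probe sets is given as a description. On the dim one, juvenile controls were at 1264, 1216, 581 and 1106 and ventilated juveniles at 1779, 1722 and 1354, without overlap, a rise of 0.67 ± 0.19 (adjusted p = 0.0269) where the bright one gave 0.10 ± 0.19. In adults the dim one stood at 209.8, 161, 222 and 201 in controls and at 203, 202, 149 and 176 after MV, which overlapped (-0.10 ± 0.18, adjusted p = 0.707) where the bright one fell. The log2 difference between the bright and the dim probe set of the same array shows this as a single value. In adults it was 2.10 ± 0.07 (SD, n = 4) in controls, 1.49 ± 0.25 after MV, 1.62 ± 0.22 after LPS and 1.37 ± 0.24 after LPS+MV. Every treated adult array lay below every one of the same 4 controls. In juveniles it was 2.37 ± 0.28 in controls and 1.80 ± 0.15 (SD, n = 3) after MV, without overlap. After LPS (2.40 ± 0.18) and LPS+MV (2.44 ± 0.02) it overlapped the juvenile controls. In exact permutation tests against controls, chosen after the values were seen, none passed. Their adjusted p was 0.0571 for each adult treatment and 0.0857 for juvenile MV. The smallest unadjusted p that these group sizes allow was 0.0286. What the probe sets read differently was not tested.

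**Figure D4:**
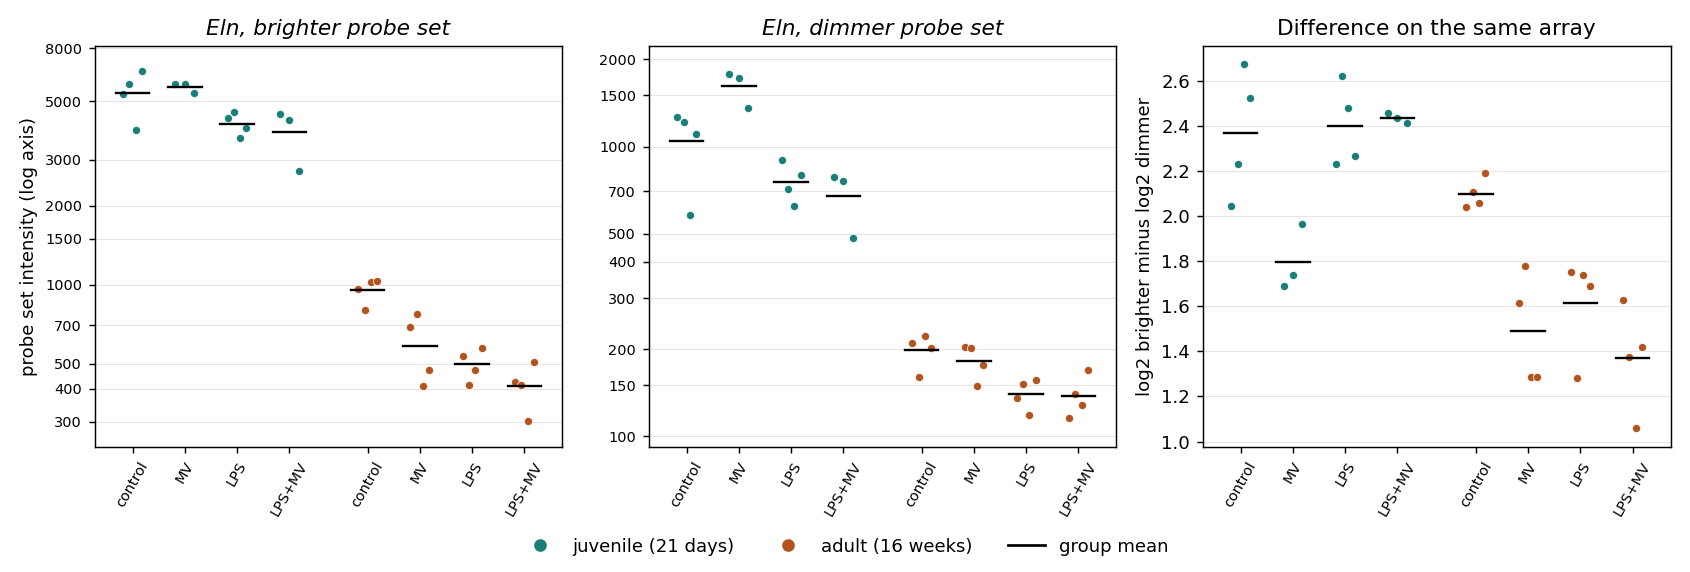
Intensity of the bright and the dim Eln probe set (left and middle, log axes) and their log2 difference on the same array (right), for each of the 30 arrays by group (x). Bars are group means. Adult controls (2.04 to 2.19 on the right) lie above all treated adult arrays, and the juvenile MV arrays (1.69 to 1.96) lie below the other juvenile groups.

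Other genes of elastic fibre assembly, 24 listed and 19 tested, went both ways. Between the controls, 8 were lower in adults and 5 higher (10.1% and 15.1% of all genes), with a median of 0.05 against 0.01 over all genes. Adamtsl2 (-1.03 ± 0.12), whose protein binds fibrillin microfibrils, and Mfap2 (-1.17 ± 0.14), which encodes a microfibril glycoprotein, were lower. Efemp1 (0.87 ± 0.11), which encodes fibulin-3, and Dcn (0.78 ± 0.11), the proteoglycan decorin, were higher, and all 4 had an adjusted p of at most 1.11e-05. In juveniles none of the 19 passed after MV (10.9% of all genes), 5 were lower and 1 higher after LPS (13.3% and 9.58%), and 1 was lower and 1 higher after LPS+MV (20.5% and 10.8%). In adults 6 were lower after MV, 3 after LPS and 6 after LPS+MV, and none was higher. With 24.3%, 23.0% and 27.3% of all genes lower in these comparisons, the counts of lower genes lay near or below the background. Bgn, which encodes the proteoglycan biglycan, fell after LPS in juveniles (-0.63 ± 0.10, adjusted p = 3.90e-05) and in adults after MV (-0.35 ± 0.10, 0.0118), LPS (-0.55 ± 0.10, 0.000134) and LPS+MV (-0.51 ± 0.10, 0.000258). Ltbp4, whose protein helps fibulin-5 deposit elastin, fell in adults after MV (-0.42 ± 0.13, adjusted p = 0.0151), LPS (-0.59 ± 0.13, 0.000912) and LPS+MV (-0.40 ± 0.13, 0.0148), 3 comparisons that share their controls.

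Within groups, the elastic fibre genes varied only loosely together. After the group means were taken off, the Pearson correlation over the 30 arrays was above 0 for 21 of 28 pairs of genes, with a median of 0.25 and a range of -0.47 (Lox and Mfap5) to 0.62 (Fbln5 and Mfap5). Without the 2 arrays furthest out, these were -0.48 and 0.59. The genes whose residual values were most like those of Eln were Pcsk5 (r = 0.80, 0.76 without the 2 furthest arrays), Col5a2 (0.80, 0.73) and Lamb1 (0.78, 0.73). For Lox they were Sgk1 (0.85, 0.79), Il4ra (0.84, 0.77) and Serpina3n (0.83, 0.79), and for Loxl1 Deptor (0.82, 0.77) and Mrc2 (0.82, 0.81). For Mfap5 they were the cell division genes Cenpa (0.88, 0.80), Pbk (0.85, 0.72) and Cdc20 (0.85, 0.73), with juvenile control replicates 1 and 4 furthest out. For Fbln5 they were Ccdc50 (0.89, 0.86) and Nrep (0.88, 0.86), for Mfap4 Dpp8 (0.84, 0.77), for Emilin1 Arl2 (0.82, 0.79) and for Fbln1 Slc25a10 (0.80, 0.74). These are the highest of 13089 values for each gene, and the arrays share their animal, RNA quality and the patterns named above, so they are a description without a test.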

How the data were processed

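RNA of whole mouse lung was measured on 30 Affymetrix arrays, 1 animal each, so p-values measure the spread between these animals. The deposited values are a linear intensity per probe set. MAS5 is named in the submitters' processing notes, and the normalization between arrays is not given in the sources used here. As an array has no read depth, the number of arrays limits the precision. Intensities were used as deposited, as log2(intensity + 32). A probe set was kept if it was above the median of its own array on at least 3 arrays, and the brightest kept probe set with a single symbol represented a gene, which gave 13089 genes. All 8 groups were fitted together in limma 3.58.1 (R 4.3.3; lmFit and eBayes with an intensity trend, 22 residual and 4.87 prior degrees of freedom) without a replicate block, with Benjamini-Hochberg adjustment over all genes and a threshold of 0.05, for 17 comparisons. The fit was tested on simulated data. Figures were drawn with matplotlib 3.10.9.

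All members are named. Of the other lists, up to 4 genes with the smallest p are named per comparison, and any other gene is named with its value (Ltbp4 was added after its values were seen). Up to 5 genes with the highest correlation of within-group residuals are named as alike. The members and lists were chosen with earlier results of these data known. As alternatives, each array was left out in turn, the replicate number entered as a block or high Xist (above 100) as a term, the fit was limited to the groups compared, arrays were weighted, the intensity trend or the filter was dropped, a gene's probe sets were averaged, the pseudocount was set to 1, and arrays were quantile-normalized. Added after the data were seen were the fits without the 4 arrays that stood apart and without either pair of adult controls, and the other probe sets. The labels do not say that a replicate number marks shared animals or days, and the numbers were not taken to pair animals. Promoter windows came from RefSeq's GRCm38.p6 table and were taken for Fbln1, Fbln5 and Emilin1 only. No usable window was at hand for Eln, Loxl1, Mfap4 and Mfap5, and Lox is not shown either.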

Additional observations from a re-analysis of the deposited data

Results flagged for a closer look

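Emilin1 in juvenile LPS replicate 4 lay below the other arrays of its group, which were close together. It was at 195, and the other 3 juvenile LPS arrays were at 224.5 to 227.7, while the juvenile controls spanned 166 to 245. The gap to the nearest array was 0.909 of the whole range of the group, above Dixon's 95% critical value for 4 arrays. It was the only one of 48 combinations of gene and group tested in this way to be flagged, and chance flags about 1 in 20 groups, a larger share than this.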

How the results depend on the processing

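Of the counts of elastic fibre genes that passed, the one between the controls was 7 in every fit on the brightest or averaged probe sets. On the dimmest Fbln1 probe set Fbln1 did not pass. Leaving out each array in turn gave 0 to 2 genes after juvenile MV, 4 to 5 after juvenile LPS, 1 to 3 after juvenile LPS+MV, 5 to 6 after adult MV, 4 to 6 after adult LPS and 4 to 5 after adult LPS+MV. Adults against juveniles gave 6 to 7 after MV, 5 to 6 after LPS and 5 to 7 after LPS+MV. LPS+MV against LPS gave 0 to 1 in adults, LPS+MV against MV 0 to 1 at both ages, and each age interaction 0 to 1. For LPS+MV against MV in juveniles, a pseudocount of 1, no filter, no intensity trend, only the compared groups and the Xist term each gave 0, and array weights gave 4. In adults the same comparison gave 2 under quantile normalization and with only the compared groups, 1 with a pseudocount of 1, no trend, the Xist term or without the 4 arrays that stood apart, and 3 with array weights. Array weights also gave 1 and 2 for LPS+MV against LPS in juveniles and adults, and 2 for the age interactions of MV and of LPS+MV. With only the compared groups juvenile MV gave 0, and the Xist term gave 1 for juvenile LPS+MV and 3 for adult MV against controls. Without the 4 arrays that stood apart juvenile MV gave 1, and the age interactions gave 2 for MV, 1 for LPS and 2 for LPS+MV. Without adult control replicates 3 and 4, juvenile LPS+MV against MV gave 0. Without replicates 1 and 2 it gave 0, adult LPS+MV against MV gave 1, and adult MV and LPS+MV against controls gave 3 and 2. Same-numbered arrays of different groups correlated more often above 0.1 (37 of 99 pairs, mean 0.0458) than others (46 of 294, mean -0.0153), and 15 of 30 arrays correlated best with their own number, a hint from the data and not the design. With the replicate number as a block, adult LPS+MV gave 1 against LPS and 1 against MV, the interactions of MV and LPS+MV gave 1 each, and no gene's call was lost. Fbln1 turned direction only on its dimmest probe set: -0.0099 between controls, 0.062 after adult MV, 0.065 after adult LPS and -0.070 between ages after LPS+MV. The cause was not tested. The signal limits Fbn2, the dimmest member, which was below each array's median throughout.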

Other observations

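Genes that cut elastic fibres or inhibit the enzymes that do, 20 listed and 18 tested, are given with the share of all genes that passed in each comparison. After juvenile MV 1 was lower and none higher (10.9% of all genes passed), and after adult MV 3 were lower and none higher (31.5%), among them Mmp14 (-0.66 ± 0.17, adjusted p = 0.00466), a membrane-bound matrix metalloproteinase, in limma's fit. After juvenile LPS 4 were higher and 1 lower (22.9%), and after adult LPS 5 were higher and 5 lower (36.0%). Timp1, which encodes an inhibitor of metalloproteinases, rose by 2.96 ± 0.15 in juveniles and 2.24 ± 0.15 in adults (adjusted p = 1.01e-14 and 4.72e-12). Mmp12, the macrophage elastase, rose by 0.78 ± 0.12 and 0.66 ± 0.12 (adjusted p = 1.06e-05 and 8.09e-05). After LPS+MV 6 were higher and 1 lower in juveniles (31.3%), and 4 higher and 5 lower in adults (42.1%). Between the controls 8 were higher and 3 lower in adults (25.2%), the highest count of the 7 comparisons with controls, with Mmp2, a gelatinase, at -1.12 ± 0.12 (adjusted p = 2.15e-07).

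Of 22 listed genes of TGF-beta signalling and of elastin regulation, 20 were tested. After MV 4 were higher and 1 lower in juveniles, where 10.9% of all genes passed, and 2 higher and 7 lower in adults, where 31.5% did. The interaction of age and MV passed for 4 genes, all with a lower difference in adults, where 6.13% of all genes passed. Tgfb2, a TGF-beta ligand, rose by 0.44 ± 0.12 in ventilated juveniles (adjusted p = 0.0208) and was at -0.63 ± 0.11 in ventilated adults (adjusted p = 0.000160). After LPS 5 were higher and 4 lower in juveniles (22.9%), and 7 higher and 6 lower in adults (36.0%). Il1b, an inflammatory cytokine gene, rose by 4.33 ± 0.32 in juveniles and 2.58 ± 0.32 in adults (adjusted p = 3.04e-11 and 4.98e-07). After LPS+MV 7 were higher and 1 lower in juveniles (31.3%), and 8 higher and 8 lower in adults (42.1%). Between the controls 7 were higher and 3 lower in adults (25.2%). All adult MV arrays and no adult control had high Xist, and the part of that pattern in these lists was not tested.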
